A study of Mus musculus with 12 samples.

Results

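The genes described here encode subunits of the Polycomb repressive complexes. They are the 10 rows of the deposited expression table, out of 47729, whose gene name is Ezh1, Ezh2, Eed, Suz12, Jarid2, Mtf2, Phf19, Kdm2b, Cbx2 or Cbx7. The choice was made by function, with earlier results of these data known. All 10 passed the filter on low values, which asked for 2 or more libraries at 1 FPKM or above and kept 13981 genes. FPKM divides the reads of a gene by its exon length and by library depth, so levels of different genes can be set side by side only roughly. Exon length still tracked the replicate difference at 0 h, as described below.

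Messenger RNA was sequenced from E14Tg2a cells, a mouse embryonic stem cell line of strain 129/Ola. One genotype was wild type (WT), and the other was delta 0.7 (delta here), a line with both copies of a regulatory region of Tcf15 deleted (chr2:152177049-152177722, mm10). The table headers give 1 clone name for delta, so the deletion and the clone cannot be told apart. Each genotype was sampled in serum-free 2iL medium (0 h) and after 12 h and 24 h on fibronectin in N2B27 medium with Activin, bFGF and KOSR, with 2 libraries in each of the 6 groups. Both genotypes thus changed plate coating and medium between 0 h and 12 h, and time and medium cannot be told apart. Nothing in the labels states that replicates came from separate cultures, so the p-values rest on differences among these samples that may be technical only. In bulk RNA, fewer cells expressing a gene and less RNA per cell cannot be told apart.

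Polycomb repressive complex 2 (PRC2) places methyl groups on lysine 27 of histone H3. Its core holds a catalytic subunit, EZH1 or EZH2, with EED, which binds the methylated tail and stimulates the enzyme, and SUZ12, the scaffold to which accessory subunits bind. The accessory subunits divide PRC2 into forms: the Polycomb-like proteins MTF2 and PHF19, which bind CpG-rich DNA, mark one form, and JARID2 marks another. Polycomb repressive complex 1 (PRC1) ubiquitinates histone H2A. Canonical PRC1 reads the H3 lysine 27 mark through a CBX protein such as CBX2 or CBX7, and a variant PRC1 is brought to CpG islands by KDM2B, which binds unmethylated CpG through its CXXC zinc finger. In embryonic stem cells these complexes are known for keeping developmental genes silent.

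Because several of these proteins bind CpG-rich DNA and several of the genes are known to start in CpG islands, the promoter sequences of the 3 genes that rose most are shown first, with those of 2 that were not called for comparison. The sequences are RefSeq's (GRCm38.p6), from the 250 bases before an annotated start, as the longest stretch outside every annotated exon. They are written 5′ to 3′ on the strand of the gene, with each CpG in capitals. RefSeq windows were matched for 9 of the 10 genes (14 windows), and Cbx2 was not among them.
Phf19, chr2:34914027-34914215, minus strand: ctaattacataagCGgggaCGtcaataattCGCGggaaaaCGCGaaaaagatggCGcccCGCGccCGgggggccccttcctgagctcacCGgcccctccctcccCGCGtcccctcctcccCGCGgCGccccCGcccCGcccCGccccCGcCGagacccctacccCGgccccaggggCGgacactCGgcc
Jarid2, chr13:44730524-44730773, plus strand: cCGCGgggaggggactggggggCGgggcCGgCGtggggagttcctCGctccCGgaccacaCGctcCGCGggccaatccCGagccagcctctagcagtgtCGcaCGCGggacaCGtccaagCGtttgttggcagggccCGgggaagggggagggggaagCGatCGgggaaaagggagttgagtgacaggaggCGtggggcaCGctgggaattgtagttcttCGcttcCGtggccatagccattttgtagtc
Kdm2b, start near the 5′ end of the gene, chr5:122988537-122988757, minus strand: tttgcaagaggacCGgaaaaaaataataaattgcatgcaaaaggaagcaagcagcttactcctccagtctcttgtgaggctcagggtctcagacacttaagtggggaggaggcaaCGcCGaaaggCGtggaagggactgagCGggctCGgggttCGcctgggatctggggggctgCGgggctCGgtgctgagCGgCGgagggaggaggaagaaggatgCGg
Kdm2b, internal start, chr5:122900368-122900617, minus strand: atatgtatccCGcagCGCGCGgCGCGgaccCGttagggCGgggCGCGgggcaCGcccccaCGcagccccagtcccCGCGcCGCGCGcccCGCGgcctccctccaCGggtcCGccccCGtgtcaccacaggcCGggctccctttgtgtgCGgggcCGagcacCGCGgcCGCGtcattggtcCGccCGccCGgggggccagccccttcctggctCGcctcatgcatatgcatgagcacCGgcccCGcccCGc
Mtf2, chr5:108065424-108065673, plus strand: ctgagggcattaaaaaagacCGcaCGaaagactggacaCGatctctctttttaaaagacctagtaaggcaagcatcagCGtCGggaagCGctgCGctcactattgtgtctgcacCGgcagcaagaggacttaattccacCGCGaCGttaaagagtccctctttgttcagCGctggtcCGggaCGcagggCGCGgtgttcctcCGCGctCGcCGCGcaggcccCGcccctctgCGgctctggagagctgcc
Suz12, chr11:79992856-79993105, plus strand: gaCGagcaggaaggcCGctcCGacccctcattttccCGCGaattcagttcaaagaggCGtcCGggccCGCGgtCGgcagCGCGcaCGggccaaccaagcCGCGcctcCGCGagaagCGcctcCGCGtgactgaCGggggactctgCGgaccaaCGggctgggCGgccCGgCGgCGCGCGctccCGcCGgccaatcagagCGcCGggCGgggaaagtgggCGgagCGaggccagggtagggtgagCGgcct

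Over the full 250-base windows, Phf19 held 31 CpG and the Jarid2 window shown held 23, with 22 in its other window. Kdm2b had 4 windows. The most upstream window held 27 CpG and is not shown, since its longest stretch outside annotated exons was 43 bases. The next window downstream, shown, held 12. The internal window shown, which lies within the gene, held 36, and another that overlaps it held 38. Mtf2 held 23 CpG in the window shown and 2 in its other window, and Suz12 held 37. The median of all 32851 mouse windows was 6, and a window with 31 stood at the 94.8th percentile. Ezh2 and Cbx7 held 23 each, Ezh1 held 14 and Eed held 12. CpG-rich windows were thus found both in genes that rose and in genes that were not called. On either strand the letters GCGGGAA were found in the windows of Phf19 and Suz12 and in 3.82% of all windows. The letters ATGCAAAT were found in 0 of the 14 windows and in 1.60% of all windows.

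By GENCODE M21 (mm10), the PRC2 core genes lie at chr11:101191115-101226463 (Ezh1, minus strand), chr6:47530139-47595341 (Ezh2, minus), chr7:89954654-89980983 (Eed, minus) and chr11:79993106-80034123 (Suz12, plus). The accessory genes lie at chr13:44729474-44921643 (Jarid2, plus), chr5:108065674-108109004 (Mtf2, plus) and chr2:34893757-34914026 (Phf19, minus). The PRC1 genes lie at chr5:122870665-122989823 (Kdm2b, minus), chr11:119022962-119031270 (Cbx2, plus) and chr15:79915807-79971119 (Cbx7, minus). Jarid2, Phf19, Ezh1 and Cbx2 share no exon bases with another gene. The other 6 share between 1.54% (Cbx7, with Apobec3) and 8.74% (Kdm2b, with Rnf34, Gm44574 and A930024E05Rik) of theirs. Strand use in the read counting was not given in the sources used here. Without strand, reads in the shared bases of these 6 genes and their neighbours cannot be told apart.

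The libraries held 9740758 to 17570996 reads in genes, recovered from the steps between low FPKM values. Tcf15 checked the genotype labels: it stood at 3.45 to 99.4 FPKM in WT libraries and 1.04 to 4.44 in delta libraries. By limma it was lower in delta averaged over times (log2 difference −3.27 ± 0.27 SE, adjusted p = 0.0050) and at 12 h (−4.34, called). It was not called at 0 h (−1.40) or 24 h (−4.06). Nor was it called in the difference between genotypes in the 12 h change (−2.94) or the 24 h change (−2.65). The stem cell factors Pou5f1 (535.4 to 1111 FPKM) and Sox2 (213 to 342) were high in all 12 libraries. By 24 h all 4 naive markers fell and all 4 formative epiblast markers rose, among them Klf4 (−3.70) and Pou3f1 (5.84 on the log2 scale). Of the formative markers, Pou3f1 and Fgf5 were under 1 FPKM in every 0 h library. They passed the filter only through later times, so a rise from 0 h was the only change they could show. Primitive endoderm markers summed to under 1 FPKM in every library (0 of 5 passed the filter), and of 4 neural markers Pax6 and Neurog2 stayed under 1 FPKM, Sox1 at 0.300 to 1.39 and Tubb3 at 9.17 to 46.1. Fibroblast markers (5 of 7 passed the filter) summed to 21.3 to 48.9 FPKM in the 3 WT replicate 1 libraries and to 1.82 to 6.58 in the other 9. The replicate 1 libraries of 0 h stood apart: the share of reads in ribosomal protein genes was 11.4% in WT and 13.4% in delta, against 5.74% to 7.5% elsewhere, and the log2 differences between replicates 1 and 2 over genes had an SD of 0.66 (WT) and 0.83 (delta) at 0 h, against 0.31 to 0.42 later. Mitochondrial genes took 0.448% to 0.647% of reads in replicate 1 libraries and 1.80% to 2.87% in replicate 2 libraries. Results are therefore also given without both replicate 1 libraries of 0 h, a choice made after the data were seen, in which the lone library left in each 0 h group is assumed to vary like the other groups.

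The first comparison asked how the Polycomb genes changed as the cells left the naive state. Jarid2, Kdm2b and Phf19 rose in both genotypes by 12 h and were still raised at 24 h. Cbx7 rose by 12 h and Cbx2 by 24 h when the genotypes were averaged, and Eed was lower at 24 h. Ezh1, Ezh2, Suz12 and Mtf2 did not pass the test. In WT cells 3 of 10 genes were called at 12 h and 3 at 24 h (limma adjusted p under 0.05), where 4.03% and 10.2% of all tested genes were called. In delta cells the counts were again 3 and 3, where 7% and 15.4% of tested genes were called. Averaged over genotypes, 4 of 10 were called at 12 h (17.3% of tested genes), all 4 of them higher (8.71% of tested genes were called higher). At 24 h 5 of 10 were called (28.1%), 4 higher (13.7%) and 1 lower (14.4%). Phf19 is among the genes called higher at both times in WT, in delta and averaged over genotypes. It passed the filter only through the times where it was high, so a rise from 0 h was the only change it could show. The median change of the 10 genes was 0.18 log2 units at 12 h and 0.33 at 24 h, and that of all tested genes was −0.03 and −0.04. Between 12 h and 24 h limma called 0 of 10 in WT (0.408% of tested genes) and 0 of 10 in delta (1.36%). At an unadjusted p under 0.05 it was 0 of 10 in either genotype. Of the 13981 tested genes, 587 were higher and 504 lower at that limit in WT, and 657 and 702 in delta. With both replicate 1 libraries of 0 h left out, the averaged counts were 4 at 12 h (26.1% of tested genes) and 6 at 24 h (40.6%). That fit called 5 at 24 h in WT (20.2%), 5 at 24 h in delta (27.9%), and 1 between 12 h and 24 h in WT (2.4%) and in delta (5.1%).

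**Figure D1:**
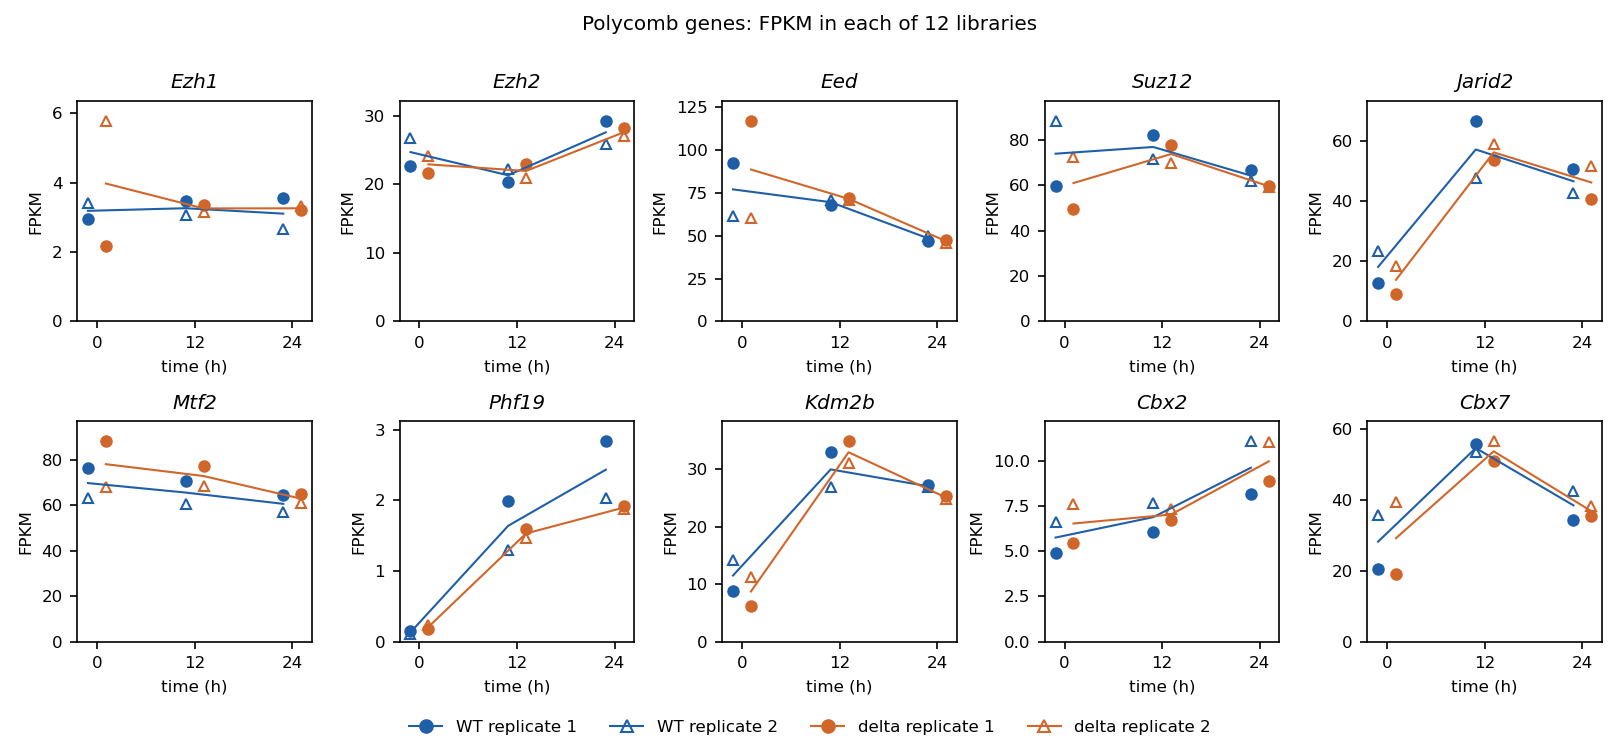
FPKM of each of the 10 genes (vertical axes, linear from 0) against time in hours, with WT in blue and delta in orange, replicate 1 as filled circles, replicate 2 as open triangles, and lines through the means of 2 libraries. Jarid2, Phf19 and Kdm2b stand higher in all 8 libraries of 12 h and 24 h than in any 0 h library.

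Among the accessory subunits of PRC2, Jarid2 and Phf19 rose and Mtf2 did not pass the test. Jarid2, which binds the core complex and helps recruit it and stimulate its activity, stood at 0 h at 12.8 and 23.4 FPKM in WT (replicates 1 and 2) and 9.14 and 18.5 in delta. At 12 h it stood at 66.6 and 47.7 FPKM in WT and 53.5 and 58.9 in delta. The 24 h values were 50.6 and 42.6 FPKM in WT and 40.8 and 51.6 in delta. Every library of 12 h and 24 h was above every 0 h library, and the 12 h and 24 h libraries overlapped. On the log2(FPKM + 1) scale Jarid2 rose by 12 h by 1.64 ± 0.36 (SE) in WT (adjusted p = 0.037) and 2.02 ± 0.36 in delta (adjusted p = 0.012). By 24 h it had risen by 1.37 in WT (adjusted p = 0.042) and 1.74 in delta (adjusted p = 0.012). Averaged over genotypes the change was 1.83 ± 0.25 at 12 h (adjusted p = 0.0016) and 1.55 ± 0.25 at 24 h (adjusted p = 0.0021).

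The Jarid2 change was larger in replicate 1 than in replicate 2 in both genotypes. At 24 h it was 1.90 and 0.84 log2 units in WT (replicates 1 and 2) and 2.04 and 1.43 in delta. At 0 h Jarid2 was lower in replicate 1 than in replicate 2 by 0.82 log2 units in WT and 0.94 in delta. With both replicate 1 libraries of 0 h left out, the averaged Jarid2 change was 1.39 at 12 h (adjusted p = 0.0017) and 1.11 at 24 h (adjusted p = 0.0023). The averaged calls held without any single library, while the WT calls at 12 h and 24 h were each lost without 9 of 12 libraries (adjusted p up to 0.26) and held only without WT 0 h replicate 2 or either delta 0 h library. The delta call at 12 h was lost without either delta 12 h library (0.087 and 0.095), and that at 24 h without delta 24 h replicate 2 (0.097).

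Phf19, one of the Polycomb-like proteins, was the lowest of the 10 genes and close to its floor at 0 h. It stood at 0.157 and 0.107 FPKM in WT and 0.177 and 0.237 in delta at 0 h, values that rested on 7 to 21 reads. At 12 h it stood at 1.98 and 1.29 FPKM in WT and 1.59 and 1.47 in delta. At 24 h it stood at 2.84 and 2.03 in WT and 1.92 and 1.87 in delta, from 116 to 183 reads. No 0 h library reached a later one, and within each of the 4 series of a genotype and replicate number the level was higher at 24 h than at 12 h. Phf19 reached 1 FPKM only after 0 h. It passed the filter only through the times where it was high, so a rise was the only change from 0 h it could show. The rise of Phf19 by 12 h was 1.21 log2 units in WT (adjusted p = 0.011) and 1.07 in delta (adjusted p = 0.015). By 24 h it had risen by 1.59 ± 0.20 in WT (adjusted p = 0.0013) and 1.26 ± 0.20 in delta (adjusted p = 0.0032). The pseudocount of 1 compresses changes at such levels: averaged over genotypes the change at 24 h was 1.43 ± 0.14 (adjusted p = 0.00012) and 3.07 with a pseudocount of 0.1. Without both replicate 1 libraries of 0 h the averaged change at 24 h was again 1.43 (adjusted p = 0.00082), and the 24 h calls held without any single library. The 12 h call was lost in WT without WT 0 h replicate 1 (adjusted p = 0.050), WT 0 h replicate 2 (0.052) or WT 12 h replicate 1 (0.10), and in delta without delta 12 h replicate 1 (0.13) or replicate 2 (0.098).

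Mtf2, the other Polycomb-like gene measured in the set, was among the 3 most abundant. At 0 h it stood at 76.4 and 63.2 FPKM in WT and 88.2 and 68.0 in delta. At 24 h it stood at 64.4 and 56.9 in WT and 64.9 and 60.9 in delta, and the 12 h libraries lay between 60.5 and 77.3. The libraries of the 3 times overlapped. The averaged change was −0.09 ± 0.14 log2 units at 12 h (adjusted p = 0.68) and −0.25 ± 0.14 at 24 h (adjusted p = 0.22), with all 4 series below 0 at 24 h. The FPKM ratio of Mtf2 to Phf19 lay between 286.7 and 592.6 at 0 h and between 22.7 and 33.8 at 24 h. The ratio of Mtf2 to Jarid2 lay between 2.70 and 9.65 at 0 h, between 1.06 and 1.44 at 12 h and between 1.18 and 1.59 at 24 h.

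**Figure D2:**
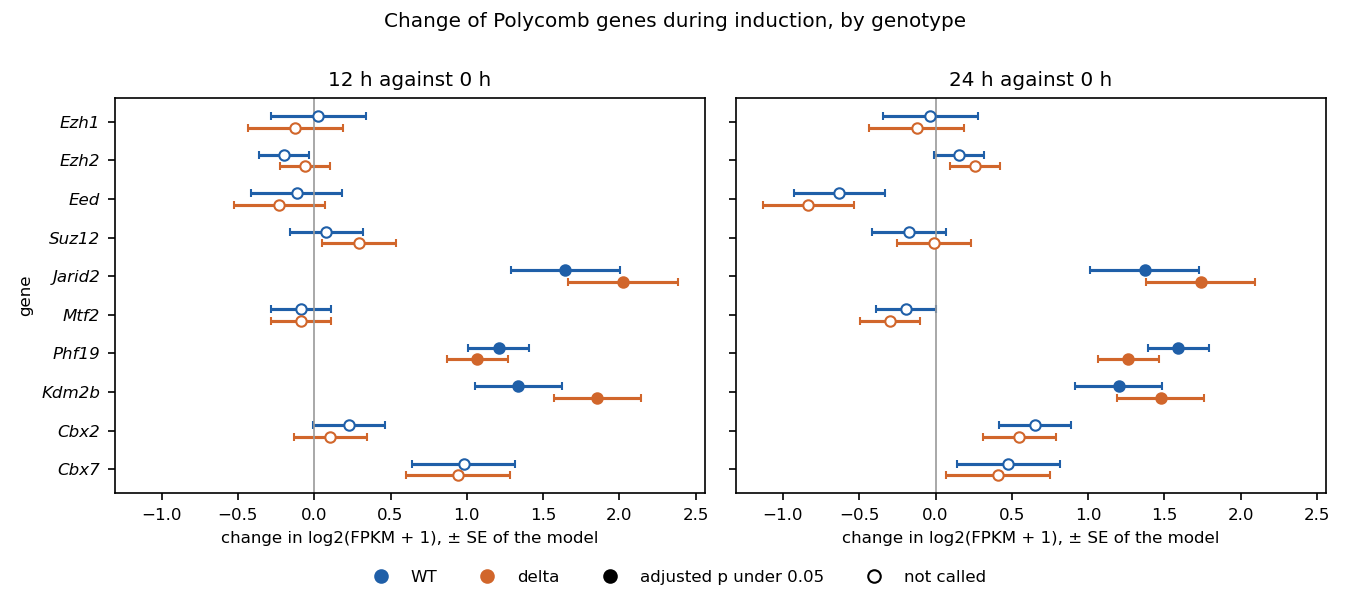
Change from 0 h to 12 h (left) and to 24 h (right) in log2(FPKM + 1) for each of the 10 genes, as limma estimates ± SE in WT (blue) and delta (orange), with filled points for an adjusted p under 0.05. Jarid2, Phf19 and Kdm2b are filled in both genotypes at both times.

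In the PRC2 core, Eed was lower at 24 h and the other 3 genes did not pass the test. Eed stood at 0 h at 92.8 and 61.4 FPKM in WT and at 117 and 60.4 in delta. At 12 h it stood at 68.2 and 71.1 in WT and 72.1 and 71.1 in delta. The 24 h values were 47.2 and 49.8 in WT and 47.8 and 45.8 in delta. The 4 libraries of 24 h lay below all 8 earlier ones, and the 12 h libraries lay between the replicate 1 and replicate 2 libraries of 0 h. The averaged change of Eed by 24 h was −0.73 ± 0.21 log2 units (adjusted p = 0.030), and that at 12 h was −0.17 (adjusted p = 0.58).

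The size of the Eed change depended on the 0 h library. In WT it was −0.96 in replicate 1 and −0.30 in replicate 2, and in delta −1.28 and −0.39. Without both replicate 1 libraries of 0 h the averaged change at 24 h was −0.35 (adjusted p = 0.0069), and at 12 h it was 0.21 (adjusted p = 0.061). In that fit Eed was also called between 12 h and 24 h, at −0.51 in WT (adjusted p = 0.029) and −0.60 in delta (adjusted p = 0.0098), the same estimates as with all libraries, where they did not pass. The 24 h call was lost without each of 7 libraries, WT 0 h replicate 1 and both replicates of WT 24 h, delta 12 h and delta 24 h (adjusted p = 0.053 to 0.095), and with median-centred libraries (adjusted p = 0.063).

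Suz12, the scaffold, stood at 59.6 and 88.4 FPKM in WT and 49.5 and 72.5 in delta at 0 h. Its 12 h libraries lay between 69.7 and 82.1 and its 24 h libraries between 59.3 and 66.6, so the times overlapped. The averaged change was 0.19 ± 0.17 at 12 h (adjusted p = 0.46) and −0.09 ± 0.17 at 24 h (adjusted p = 0.72). At 24 h the change was 0.16 (WT) and 0.27 (delta) in replicate 1 and −0.50 and −0.29 in replicate 2. Without both replicate 1 libraries of 0 h it was −0.37 (adjusted p = 0.016). All 4 series were lower at 24 h than at 12 h, a difference that did not pass in either genotype (adjusted p = 1 in WT and 0.91 in delta).

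Ezh2, the main catalytic subunit in dividing cells, stood at 22.7 and 26.7 FPKM in WT and 21.6 and 24.2 in delta at 0 h. It stood at 20.4 to 23.0 at 12 h and at 25.9 to 29.2 at 24 h. The 24 h libraries were all above the 12 h libraries, but the difference was not called (0.36 ± 0.16 log2 units in WT, adjusted p = 0.68, and 0.32 ± 0.16 in delta, adjusted p = 0.64). Its averaged change from 0 h was −0.13 at 12 h (adjusted p = 0.45) and 0.21 at 24 h (adjusted p = 0.21).

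Ezh1, the alternative catalytic subunit, known for lower activity than Ezh2, was near 3 FPKM in most libraries. At 0 h it stood at 2.96 and 3.42 FPKM in WT and at 2.17 and 5.78 in delta, the widest replicate gap among its groups. The later libraries lay between 2.66 and 3.56. The averaged change was −0.05 at 12 h (adjusted p = 0.89) and −0.08 at 24 h (adjusted p = 0.82). Without both replicate 1 libraries of 0 h, which leaves the delta library at 5.78 FPKM as the only one of its group, the averaged change at 24 h was −0.39 (adjusted p = 0.044). In that fit Ezh1 was called in delta at 12 h (−0.67, adjusted p = 0.045) and 24 h (−0.67, adjusted p = 0.032) and not in WT (−0.05 and −0.11), and the difference between genotypes in the change was not called at either time (adjusted p = 0.87 and 0.77). The FPKM ratio of Ezh2 to Ezh1 was between 4.19 and 9.96 over the 12 libraries, with both ends in delta 0 h libraries, and Ezh2 was the higher in all 12.

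In the PRC1 group Kdm2b rose most. Kdm2b, the CpG-binding subunit of variant PRC1 and also a histone demethylase, stood at 0 h at 8.80 and 14.2 FPKM in WT and 6.12 and 11.3 in delta. At 12 h it stood at 33.0 and 26.9 FPKM in WT and 34.9 and 31.0 in delta. The 24 h values were 27.2 and 26.8 in WT and 25.3 and 24.8 in delta. Every later library was above every 0 h library. The change by 12 h was 1.34 ± 0.29 log2 units in WT (adjusted p = 0.035) and 1.86 ± 0.29 in delta (adjusted p = 0.0063). By 24 h it was 1.20 in WT (adjusted p = 0.029) and 1.48 in delta (adjusted p = 0.0088).

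Averaged over genotypes Kdm2b rose by 1.60 ± 0.20 at 12 h (adjusted p = 0.0010) and 1.34 ± 0.20 at 24 h (adjusted p = 0.0013). When both replicate 1 libraries of 0 h were left out, these changes were 1.24 (adjusted p = 0.00047) and 0.98 (adjusted p = 0.00055). The averaged calls held without any single library. The WT call at 12 h was lost without 9 of 12 libraries (adjusted p up to 0.24) and held without WT 0 h replicate 2 or either delta 0 h library, and that at 24 h was lost without WT 0 h replicate 1 and both replicates of WT 24 h, delta 12 h and delta 24 h (adjusted p up to 0.15). The delta calls were lost without either delta library of the later time compared (adjusted p = 0.052 to 0.073).

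Cbx7, the chromobox protein known as the main one of canonical PRC1 in naive stem cells, stood at 20.6 and 35.8 FPKM in WT and 19.1 and 39.3 in delta at 0 h. At 12 h it stood at 55.7 and 53.4 in WT and 50.8 and 56.5 in delta. The 24 h values were 34.3 and 42.5 in WT and 35.3 and 38.3 in delta. The 12 h libraries were above all the others, and the 24 h libraries overlapped those of 0 h. The averaged rise of Cbx7 by 12 h was 0.96 ± 0.24 log2 units (adjusted p = 0.026), and at 24 h the change was 0.44 ± 0.24 (adjusted p = 0.20). Within a genotype the 12 h change did not pass (0.98, adjusted p = 0.17 in WT and 0.94, adjusted p = 0.14 in delta). Without both replicate 1 libraries of 0 h the averaged change at 12 h was 0.52 (adjusted p = 0.013) and that at 24 h was −0.00047. The 12 h call did not survive leaving out WT 0 h replicate 1 or any single 12 h library (adjusted p = 0.068 to 0.091), and at 24 h the change of 0.69 without delta 0 h replicate 2 was called (adjusted p = 0.018).

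Cbx2, another chromobox reader, known for compacting chromatin, stood at 4.89 and 6.60 FPKM in WT and 5.45 and 7.60 in delta at 0 h. At 12 h it stood at 6.08 and 7.67 in WT and 6.71 and 7.33 in delta. By 24 h it reached 8.14 and 11.1 in WT and 8.88 and 11.0 in delta. The 24 h libraries were above all 8 earlier ones, and within each of the 4 series the level was highest at 24 h. The averaged rise of Cbx2 by 24 h was 0.60 ± 0.17 log2 units (adjusted p = 0.027), and the change at 12 h was 0.17 (adjusted p = 0.50). Within a genotype the 24 h change was 0.65 in WT (adjusted p = 0.13) and 0.55 in delta (adjusted p = 0.15). The averaged call was lost without both replicate 1 libraries of 0 h (0.40, adjusted p = 0.081) and without WT 0 h replicate 1, WT 24 h replicate 2, delta 0 h replicate 1 or delta 24 h replicate 2 alone (adjusted p = 0.053 to 0.11). The FPKM ratio of Cbx7 to Cbx2 lay between 3.50 and 5.42 at 0 h, between 6.96 and 9.17 at 12 h and between 3.47 and 4.22 at 24 h, so it was above its 0 h and 24 h values in all 4 libraries of 12 h.

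**Figure D3:**
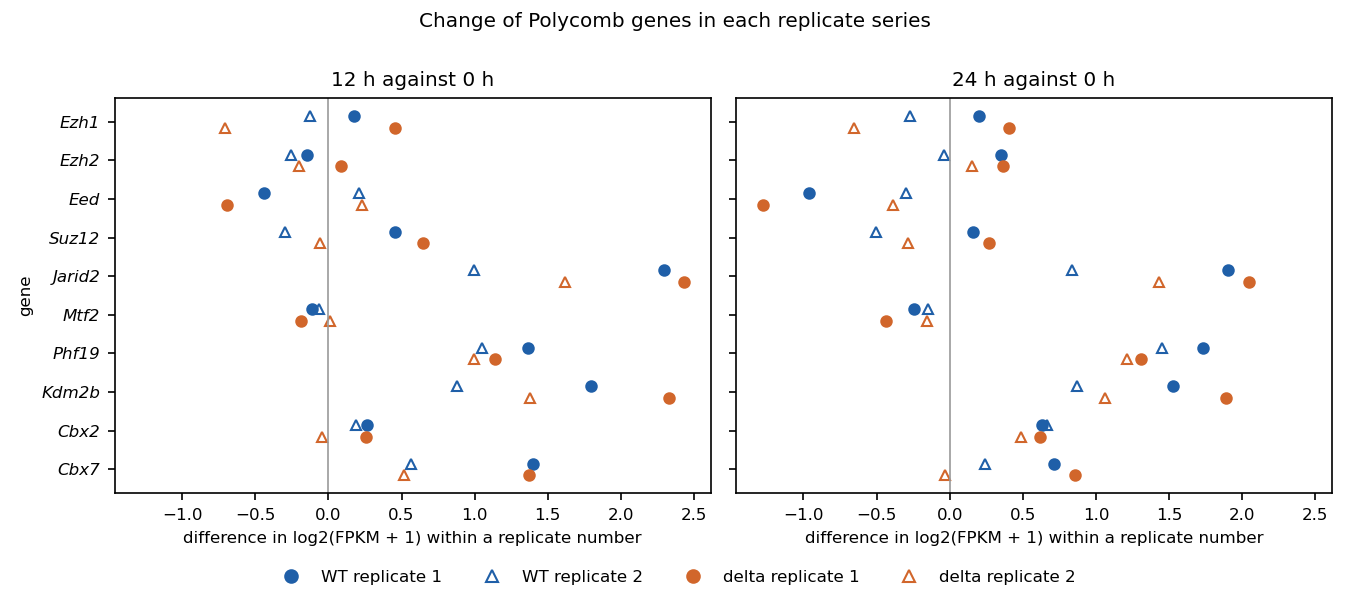
Difference in log2(FPKM + 1) between 12 h (left) or 24 h (right) and 0 h within each of the 4 series of a genotype and replicate number, with replicate 1 as filled circles, replicate 2 as open triangles, WT in blue and delta in orange. The points of Jarid2, Phf19 and Kdm2b are above 0 in all 4 series at both times, and those of Eed and Mtf2 are below 0 in all 4 at 24 h.

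Within the 4 series, the direction of the later step, from 12 h to 24 h, differed between genes. Jarid2, Kdm2b and Cbx7 were above 0 h in all 4 series at 12 h and lower at 24 h than at 12 h in all 4. Phf19 and Cbx2 were higher at 24 h than at 12 h in all 4 series, as was Ezh2. Eed, Suz12 and Mtf2 were lower at 24 h than at 12 h in all 4. None of these later steps passed the test with all libraries, so different time courses are not established. The share of tested genes whose 4 series agree in sign was not counted. As for libraries that did not overlap, 4 genes (Jarid2, Phf19, Kdm2b and Cbx7) had all 4 libraries of 12 h above all 4 of 0 h, as did 13.1% of tested genes. At 24 h 4 genes (Jarid2, Phf19, Kdm2b and Cbx2) lay above and 1 (Eed) below, as did 15.6% and 16.7% of tested genes. Phf19, above at both times, passed the filter only through its later libraries.

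Over the 12 libraries Mtf2 and Suz12 (means of 68.3 FPKM each) and Eed (67.1) were the most abundant, at about the 93rd percentile of tested genes. Their ranges overlapped, and their order was not the same in all libraries. Cbx7 (40.1) and Jarid2 (39.7) came next, followed by Ezh2 (24.3) and Kdm2b (22.5). Cbx2 (7.62), Ezh1 (3.34) and Phf19 (1.31) were the lowest, Phf19 at the 15.5th percentile. At 0 h Jarid2 was below Ezh2 in all 4 libraries (FPKM ratio 0.422 to 0.876), and it was above Ezh2 in all 8 later libraries (1.45 to 3.26).

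The 0 h replicate difference touched these genes unequally. Replicate 1 minus replicate 2 at 0 h was 0.59 (WT) and 0.94 (delta) log2 units for Eed and −0.77 and −1.0 for Cbx7. It was −0.63 and −0.79 for Kdm2b, −0.56 and −0.54 for Suz12 and 0.06 and −0.07 for Phf19. For Jarid2 it was −0.82 and −0.94, for Cbx2 −0.37 and −0.41 and for Mtf2 0.27 and 0.37. For Ezh2 it was −0.23 and −0.15, and for Ezh1 −0.16 and −1.09. Across the 13981 tested genes, exon length correlated with that difference at a Spearman rho of −0.25 in WT and −0.31 in delta (given as a description, since genes of a library share its depth and preparation). Exon length correlated with the change by 12 h at 0.29 in the replicate 1 series and −0.01 in the replicate 2 series. Kdm2b (10869 bases) and Jarid2 (9715) have the longest exon sets of the 10 genes, and Eed (3828) and Cbx2 (4257) the shortest. At 0 h replicate 1 was below replicate 2 in both genotypes for Kdm2b, Jarid2 and Cbx2, and above it in both for Eed. A correlation with exon length over the 10 genes alone was not computed. Any part of exon length in the changes of these genes was not tested. In the replicate 2 series the 12 h change was 1.00 (WT) and 1.62 (delta) for Jarid2 and 0.88 and 1.38 for Kdm2b.

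The second comparison asked whether deletion of the Tcf15 regulatory region altered the Polycomb genes. By limma 0 of 10 were called between delta and WT at 0 h (0.00715% of tested genes were called), at 12 h (0.0143%), at 24 h (0.00715%) or averaged over times (0.0143%). Without adjustment 0 of 10 had a p under 0.05 in any of the 4 comparisons. Of the 13981 tested genes, 173 were higher and 109 lower in delta at that limit at 0 h, and 70 and 54 at 12 h. The counts were 104 and 110 at 24 h, and 314 and 291 averaged over times. So few passed that 0 of 10 does not set these genes apart. Averaged over times the difference of the 10 genes, delta minus WT, ran from −0.15 (Suz12) to 0.12 (Mtf2) log2 units, with an adjusted p of 1 for each of them. The 95% interval of the model was narrowest for Ezh2 (−0.23 to 0.19) and widest for Jarid2 (−0.60 to 0.33). For Kdm2b it was −0.49 to 0.26 and for Eed −0.34 to 0.44. These intervals do not show that the genotypes were alike, and they do not mark the limit of what the test detects. Tcf15, the targeted gene, was itself not called at 0 h (−1.40) or at 24 h (−4.06).

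At single times the differences in log2(FPKM + 1) were largest at 0 h. There Jarid2 (12.8 and 23.4 FPKM in WT against 9.14 and 18.5 in delta) differed by −0.38 ± 0.36 and Kdm2b by −0.38 ± 0.29, lower in delta in both replicate pairs. At 12 h the 10 differences lay between −0.06 and 0.15, and at 24 h between −0.24 (Phf19) and 0.06. Suz12 was lower and Mtf2 higher in delta in all 6 same-numbered pairs of libraries. Over the 30 combinations of gene and time, both pairs had the same sign in 15. Each of the 7 fibroblast markers counted above was higher in the WT than in the delta library of replicate 1 at each time, and their part in these differences was not tested.

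**Figure D4:**
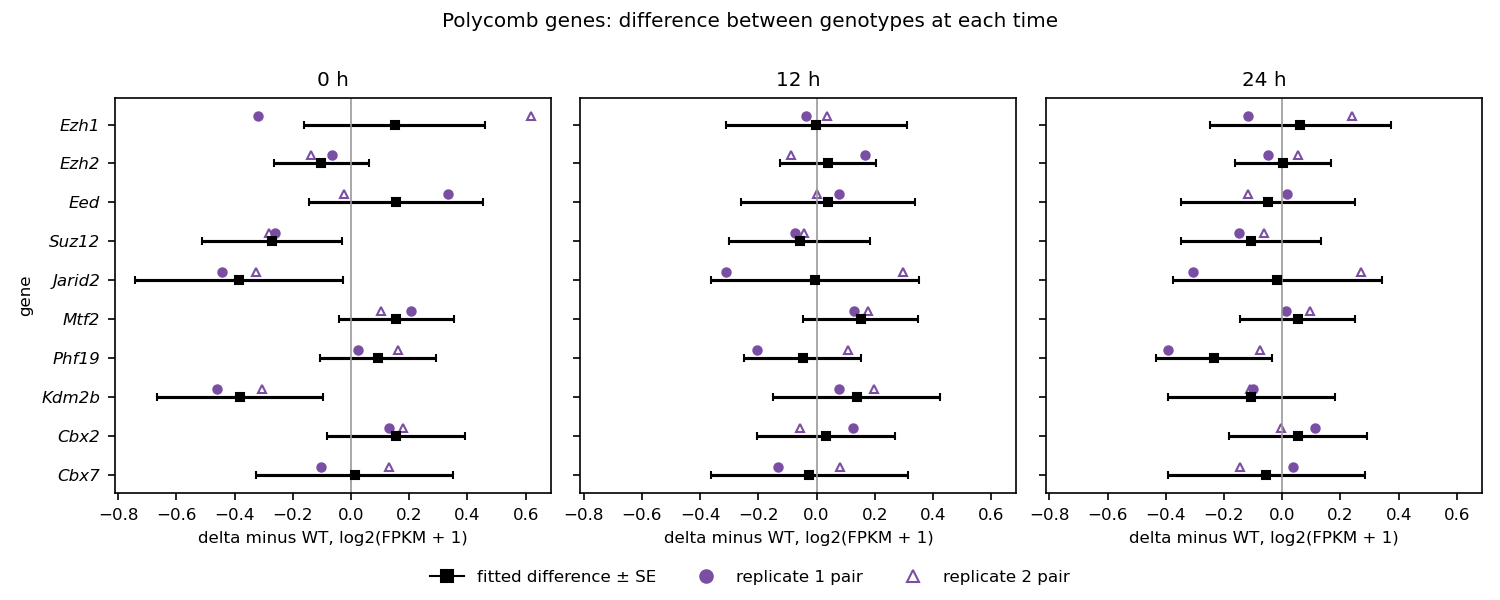
Delta minus WT in log2(FPKM + 1) at 0 h, 12 h and 24 h for each of the 10 genes, as limma estimates ± SE (black squares) with the difference within the replicate 1 pair (filled circle) and the replicate 2 pair (open triangle). None of the 30 differences was called, and the points of most genes lie on both sides of 0.

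The change over time was also compared between genotypes. The difference between delta and WT in the 12 h change, as in the 24 h change, was called for 0 of 10 genes, where 0% of tested genes were called in either. At an unadjusted p under 0.05 it was 0 of 10 at both times. Of the 13981 tested genes, 33 were above 0 and 53 below 0 at that limit for 12 h, and 61 and 77 for 24 h. On the log2(FPKM + 1) scale the largest difference among the 10 genes was that of Kdm2b at 12 h (0.52 ± 0.40, adjusted p = 1), followed by Jarid2 at 12 h (0.38 ± 0.51) and 24 h (0.37 ± 0.51). Phf19 had the lowest value at 24 h (−0.33 ± 0.28). With a pseudocount of 0.1 the difference of Phf19 at 24 h (−0.73 ± 0.51, adjusted p = 1) was larger in size than that of Kdm2b at 12 h (0.56 ± 0.44). The 3 genes called in WT at 12 h and 24 h were also the 3 called in delta.

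The other genes of the Polycomb pathway were examined from lists of 40 genes in all. Of these, 35 passed the filter, and 14 of the 35 were called in the 24 h change averaged over genotypes (28.1% of tested genes). Among the 14, 9 were higher (13.7% of tested genes were called higher) and 5 lower (14.4% were called lower). Without 1 library at a time the count of called genes ran from 9 to 23. It was 9 without delta 24 h replicate 2, where 17.5% of tested genes were called, and 23 without delta 0 h replicate 2, where 46.7% were. All 14 calls held without both replicate 1 libraries of 0 h.

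Among 8 other PRC2 genes, 2 were called higher and 1 lower, with a median change of −0.11 against −0.04 for all tested genes. Ezhip, an inhibitor of PRC2, was listed at 0.0259 to 0.279 FPKM at 0 h and 0.801 to 1.51 at 24 h, and rose by 0.91 ± 0.14 log2 units (adjusted p = 0.0016). Lcor, whose locus also yields a PRC2 accessory protein, rose by 0.69 (adjusted p = 0.0054). Ezhip reached 1 FPKM only in libraries of 24 h, and Lcor only in those after 0 h. Both passed the filter only through the times where they were high, so a rise from 0 h was the only change they could show. Both are among the higher calls counted above. Rbbp7, a histone-binding subunit, fell by 0.59 (adjusted p = 0.014), and this call needed WT 24 h replicate 2 and both delta 24 h libraries (adjusted p up to 0.053 when 1 of them was left out). Epop, an accessory subunit of the Polycomb-like form, stood at 90.0 to 169 FPKM and did not pass (−0.13, adjusted p = 0.62).

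Among 12 canonical PRC1 genes, 8 passed the filter, with 2 called higher, 2 lower and a median change of 0.00. Phc1, a polyhomeotic protein that polymerises canonical PRC1, stood at 22.6 to 48.8 FPKM at 0 h and 102 to 134 at 24 h, and rose by 1.77 ± 0.24 log2 units (adjusted p = 0.00081). Scmh1, another canonical PRC1 partner, stood at 0.317 to 1.09 FPKM at 0 h and 1.43 to 2.24 at 24 h, and rose by 0.81 (adjusted p = 0.0067). Its 0 h libraries alone did not meet the filter. It passed only through the later times where it was high, so the filter favoured a rise, and Scmh1 is among the higher calls counted above. Phc2, a second polyhomeotic gene, fell by 0.71 (adjusted p = 0.011), and Bmi1, a PCGF subunit, fell by 0.82 (adjusted p = 0.0045). Leaving out delta 24 h replicate 1 ended the Phc2 call (adjusted p = 0.052). Cbx8, a further chromobox gene, did not pass the filter.

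Among 14 variant PRC1 genes, 3 were called higher and 2 lower, with a median change of 0.35. Bcor, a corepressor of the PCGF1 form in which KDM2B is found, stood at 4.0 to 6.71 FPKM at 0 h and 12.8 to 16.4 at 24 h, and rose by 1.34 (adjusted p = 8e-04). L3mbtl2, of the PCGF6 form, rose by 1.05 (adjusted p = 0.0058) and Pcgf3 rose by 0.52 (adjusted p = 0.012). Pcgf1, the partner of KDM2B and BCOR, went the other way: it stood at 13.6 to 16.2 FPKM at 0 h and 4.28 to 6.46 at 24 h, and fell by 1.27 ± 0.13 (adjusted p = 0.00017). Yaf2 fell by 0.96 (adjusted p = 0.013). Leaving out delta 24 h replicate 2 ended the Pcgf3 and Yaf2 calls, and leaving out WT 24 h replicate 1 ended that of Pcgf3 (adjusted p up to 0.056).

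Among 6 genes of enzymes that oppose Polycomb and of their partners, 5 passed the filter and 2 were called, both higher, with a median change of 0.50. Asxl1, a partner of the H2A deubiquitinase BAP1, rose by 1.01 (adjusted p = 0.012), and Kdm6a, an H3 lysine 27 demethylase, rose by 0.50 (adjusted p = 0.017). Leaving out delta 24 h replicate 2 ended the Asxl1 call (adjusted p = 0.051). The Kdm6a call ended when WT 0 h replicate 1, WT 24 h replicate 1 or 1 of the delta 24 h libraries was left out (adjusted p up to 0.075). In the comparison of delta with WT averaged over times, 0 genes of these 4 lists were called by limma.

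**Figure D5:**
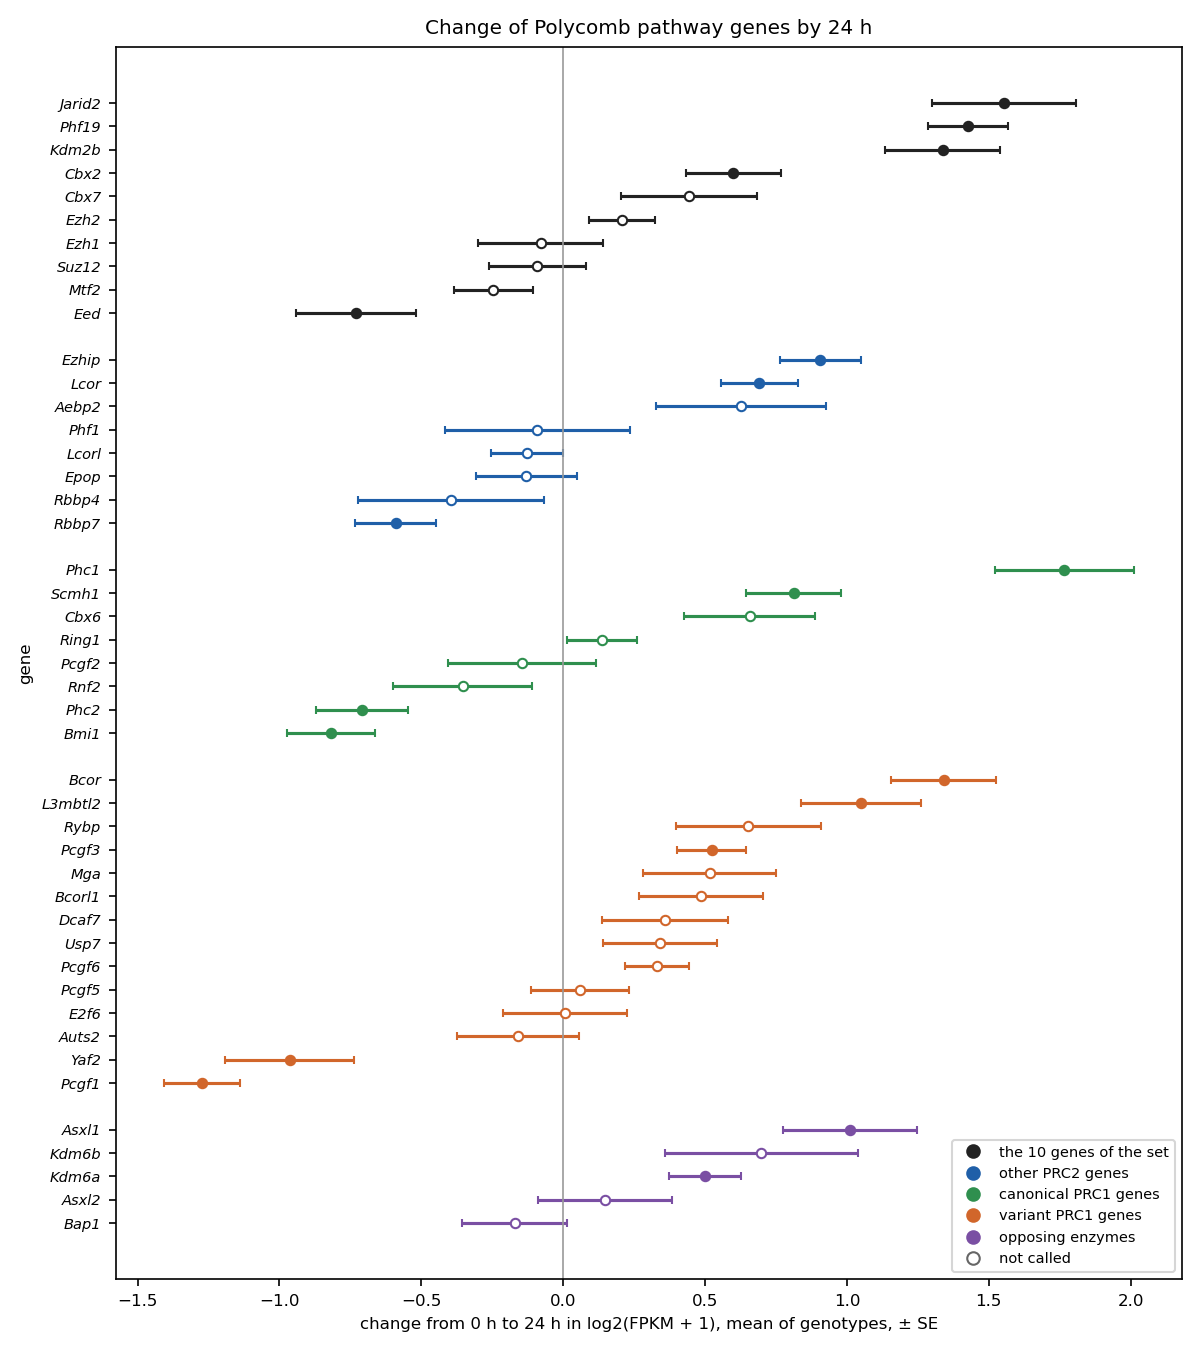
Change from 0 h to 24 h in log2(FPKM + 1), averaged over genotypes (limma estimate ± SE), for the 10 genes and the 35 other pathway genes that passed the filter, by list, with filled points for an adjusted p under 0.05. Phc1 (1.77) is the highest and Pcgf1 (−1.27) the lowest.

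Developmental genes known as Polycomb targets in stem cells were mostly at or near 0. Of 28 such genes, 25 stayed under 1 FPKM in all 12 libraries, and Hoxb1 was listed at 0 in all of them. Only Cdx2 and Cdkn2a passed the filter. Cdx2, a trophectoderm and posterior homeobox gene, stood at 2.47 to 8.39 FPKM at 0 h. It stood at most at 0.381 at 12 h and 0.345 at 24 h. It thus passed the filter only through its 0 h libraries, so a fall was the only change it could show. The fall by 24 h was 2.38 ± 0.20 log2 units (limma adjusted p = 5e-05). Cdkn2a, a cell cycle inhibitor locus, stood at 8.05 to 35.9 FPKM and did not pass (−0.53, adjusted p = 0.35).

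The genes whose levels over the 12 libraries were most like those of Jarid2, the gene with the largest averaged rise at 24 h on the log2(FPKM + 1) scale (with a pseudocount of 0.1 it was Phf19), included Tcf7l1 (Pearson r = 0.993) and Jmjd1c (0.993). Tcf7l1 encodes a repressor of WNT target genes and Jmjd1c a histone demethylase family member. For Eed, the gene with the largest averaged fall, they were Arl6ip5 (0.984), Rpe (0.972) and Ubl3 (0.966). These values describe likeness over 12 libraries that share 3 times and the 0 h replicate difference described above.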

How the data were processed

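Poly(A) RNA libraries (12) were analysed from the table of FPKM values that the authors deposited. The submitters' processing notes name cutadapt, STAR 2.5.2b, featureCounts 1.5.1, edgeR 3.16.5 and mm10. The labels' protocols give oligo-dT selection and the NEBNext Ultra II kit. All sample columns matched the labels (0 unmapped).

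From these values, 13981 genes were kept, those at 1 FPKM or above in 2 or more libraries. Their log2(FPKM + 1) values entered 1 limma 3.58.1 model (R 4.3.3) with 6 group means, no block, and moderated variances with a trend (residual degrees of freedom 6, prior 3.11). The 2-sided p-values were adjusted by Benjamini-Hochberg over all genes, with calls at an adjusted p under 0.05. The pseudocount understates changes of low genes. The script was tested on simulated data. Whole reads were recovered, with a tolerance of 0.01, from the FPKM steps of 99.997% of the 28657 genes above 0 (80.1% with GENCODE M21 exon lengths); they served for depth and shares of reads, not for tests. Figures used Python 3.11.15 and matplotlib 3.10.9.

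The genes, lists and tests were chosen with earlier results of these data known. Named genes were the 10 genes, up to 6 called genes of each pathway list with the smallest adjusted p at 24 h, any called between genotypes, Tcf15, the identity markers, and the 3 genes most correlated with the member of largest rise and of largest fall. Some other genes were named after their values were seen: Epop, Cbx8, Cdkn2a and Hoxb1. Some genes that these rules name are not reported here. Epop and Ezhip were matched by older symbols. Alternatives were another pseudocount, 2 other filters, median-centring, a replicate block and leaving out libraries.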

Additional observations from a re-analysis of the deposited data

How the results depend on the processing

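Averaged over genotypes, Jarid2, Kdm2b and Phf19 were called at 12 h and 24 h under every alternative in which they passed the filter. Without 1 library at a time, the number of the 10 genes called ranged from 0 to 4 (WT, 12 h), 1 to 3 (WT, 24 h), 0 to 5 (delta, 12 h) and 1 to 6 (delta, 24 h). Averaged over genotypes it ranged from 3 to 4 at 12 h and 3 to 6 at 24 h. It stayed at 0 for 24 h against 12 h and for every comparison of genotypes. In the averaged 24 h fits the share of all tested genes called itself ranged from 17.5% to 46.7%. The shares for the other comparisons are not given here, so these ranges are not read as particular to the 10 genes. The 14 calls among other pathway genes became 9 when delta 24 h replicate 2 was left out (17.5% of tested genes) and 23 when delta 0 h replicate 2 was left out (46.7%). With no filter beyond an FPKM above 0, 1 gene was called in WT at each time, and the share of all genes called there is not given here. The averaged calls of Cbx7 at 12 h and of Eed at 24 h were lost with that setting (limma adjusted p = 0.054 for each). Without both replicate 1 libraries of 0 h, 5 were called in WT at 24 h, 5 in delta at 24 h and 1 (Eed) between 12 h and 24 h in each genotype. In that fit the averaged change reversed at 12 h for Eed (0.21), Suz12 (−0.089), Mtf2 (0.072) and Cbx2 (−0.029) and at 24 h for Cbx7 (−0.00047). With 1 library left out, some uncalled averaged changes reversed. Ezh1 ranged from −0.32 to 0.22 at 12 h, highest without delta 0 h replicate 2, and from −0.35 to 0.20 at 24 h, above 0 without that library and without WT 24 h replicate 2 (0.000912). Eed at 12 h (−0.41 to 0.063) and Mtf2 at 12 h (−0.18 to 0.0050) reversed without delta 0 h replicate 1, and Suz12 at 24 h (−0.23 to 0.050) without either replicate 2 library of 0 h (0.050 for WT, 0.045 for delta). The cause was not tested. The samples share replicate numbers in their titles, and deviations of same-numbered WT and delta libraries correlated at 0.70, 0.28 and 0.37 at 0, 12 and 24 h; with 2 libraries a group this is a hint from the data, not the design. With the replicate block, 4 genes were called at 24 h in WT and 4 in delta, the fourth in each being Cbx2 (0.65, adjusted p = 0.021, and 0.55, adjusted p = 0.032), where 15% and 21.2% of tested genes were called, and the block changed no other call of the 10 genes. At an FPKM minimum of 5, Phf19 and Ezh1 were not tested. Counting error limits Phf19 at 0 h most.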
